A study of Mus musculus with 6 samples.

Results

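The genes described here are 5 transcription factor genes that pattern the optic cup, Vax1, Vax2, Tbx2, Tbx3 and Tbx5, read from mouse embryos dissected at E11.5. Pax2, a paired box gene of the optic stalk and fissure that belongs with them, had 0 probe sets under its symbol in the platform annotation used and was not analysed here. The members were all probe sets annotated with 1 of these symbols alone, with no minimum intensity. They covered 5 of the 18193 genes named in the table and 11 of the 45037 probe sets tested, with 2 for Vax1, 1 for Vax2, 1 for Tbx2, 5 for Tbx3 and 2 for Tbx5.

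The dissected tissue was the optic fissure, a cleft along the underside of the optic cup whose edges must meet and fuse for the eye to close. It was cut out by laser microdissection, and total RNA was hybridized to Affymetrix arrays, 1 array a sample. The 3 FGFR mutant samples were Six3Cre+;Fgfr1fx/fx;Fgfr2fx/fx, and the 3 control samples were Six3Cre-;Fgfr1fx/fx;Fgfr2fx/fx. All 6 were C57BL/6J, and mutants and controls alike carried floxed alleles of both FGF receptor genes, so the groups differed in the Cre transgene. Six3Cre recombines in the early eye field and ventral forebrain, and cells of other origin in the dissected tissue, such as mesenchyme and blood, would keep their receptors. The numbers 8711, 9216 and 9266 each named 1 mutant and 1 control array. The labels did not tell separate embryos from pools or litters, so p-values measure the spread between these samples only, which may be technical.

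In the developing eye, the dorsal and ventral sides of the optic cup are set apart by opposing signals. Hedgehog signals from the midline favour the ventral factors Pax2, Vax1 and Vax2, and BMP4 from the dorsal side favours the T-box factors Tbx5, Tbx2 and Tbx3. Vax1 and Vax2 are closely related homeobox factors, Vax1 mainly in the optic stalk and at the fissure and Vax2 in the ventral retina, and mice that lack Vax1 develop coloboma, in which the fissure fails to fuse. The 3 T-box genes are thus dorsal genes, not ventral ones, although Tbx2 and Tbx3 are also expressed in many tissues outside the eye.

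The arrays were not of equal quality. The ratio of 3 prime to 5 prime Gapdh control signal was 93.6 in the mutant 8711 array, against 4.26 to 15 in the other 5. The same ratio for Actb set it apart far less, at 14.8 against 6.03 to 12.1. Its median intensity was 18.1, against 28.7 to 34.6. No probe set of the whole table passed an adjusted p of 0.05 in limma's test (0% of 45037). In the same test 2474 had an unadjusted p under 0.05, with 2.37% of all probe sets lower and 3.12% higher in the mutants. That is near the share of 0.05 that such a threshold passes when nothing differs. Every difference below is therefore one that did not pass adjustment, and the number of arrays limits its precision.

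Vax1 had lower values in all 3 mutant arrays than in any control array, on both of its probe sets. On the brighter one, 1457396_at, its intensities were 322.9, 245.3 and 80.1 in mutant arrays 8711, 9216 and 9266, against 732.9, 595.4 and 559 in control arrays 8711, 9216 and 9266. The mutant 9266 array was the lowest by a wide margin, and the control values lay close together. The means were 216 ± 124 in the mutants and 629 ± 91.7 in the controls (SD, n = 3 each), a ratio of 0.344 and a log2 difference of -1.74 (SE 0.48). The limma p was 0.00607 before adjustment, and the adjusted p was 0.656.

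The dimmer Vax1 probe set, 1421774_at, had 43.8, 40.2 and 8.2 in mutant arrays 8711, 9216 and 9266, against 139.4, 93.9 and 117.2 in control arrays 8711, 9216 and 9266. It too was lowest in mutant 9266 and did not overlap between the groups. The means were 30.7 ± 19.6 in the mutants and 117 ± 22.8 in the controls (SD, n = 3 each), a log2 difference of -2.14 (SE 0.59) with a limma adjusted p of 0.663. Both probe sets read the same gene in the same RNA, so the second is no separate sample. Without the mutant 9266 array the differences were -1.15 and -1.42, and without the mutant 8711 array they were -2.14 and -2.52, in the order of the probe sets above.

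Among all 45037 probe sets, 5.18% did not overlap with the mutants lower, and 2.37% had an unadjusted p under 0.05 with the mutants lower. Both Vax1 probe sets met both criteria, and no other member met either one in that direction. Since each dissected piece was a bulk sample, fewer cells that express a gene and less RNA per cell cannot be told apart, for Vax1 and for every gene below.

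The sequence before the annotated start of Vax1 is shown because Vax1 was the member with the clearest difference and ETS factors are the usual nuclear effectors of FGF and ERK signalling. RefSeq places it at chr19:59170398-59170647 of GRCm38.p6, on the minus strand. It is written 5′ to 3′ in the direction of transcription, and capitals mark the ETS core GGAA on either strand, so that TTCC is the same core on the opposite strand.
Vax1: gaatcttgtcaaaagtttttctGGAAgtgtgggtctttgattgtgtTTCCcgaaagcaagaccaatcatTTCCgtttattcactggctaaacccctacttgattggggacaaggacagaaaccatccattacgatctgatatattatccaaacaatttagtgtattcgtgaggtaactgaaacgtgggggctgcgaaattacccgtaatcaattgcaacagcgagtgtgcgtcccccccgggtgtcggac
These 250 bases held 3 such cores, and 93.4% of the 32851 windows of the same length in the promoter table held at least 1. The longer form CCGGAA, which overlaps the core, was not in this window on either strand and was in 12% of all windows. Neither is evidence of binding.

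Vax2 had a small difference that lay within the spread between arrays. Its probe set 1450303_at had 741.7, 587.6 and 420.2 in mutant arrays 8711, 9216 and 9266, against 928.5, 524.2 and 778.5 in control arrays 8711, 9216 and 9266. The groups overlapped, with control 9216 below 2 of the mutant arrays, and mutant 9266 was again the lowest array. The means were 583 ± 161 in the mutants and 744 ± 204 in the controls (SD, n = 3 each), a log2 difference of -0.35 (SE 0.30) with a limma adjusted p of 0.889.

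Whether Vax1 and Vax2 differed from each other was compared within each array, where a common scaling largely cancels. The cancelling is not exact, because 1.7 was added to each intensity, which weighs most on low values. The quantity was the log2 value of Vax1 minus that of Vax2. For the brighter Vax1 probe set this was -1.20, -1.25 and -2.37 in mutant arrays 8711, 9216 and 9266, against -0.34, 0.18 and -0.48 in control arrays 8711, 9216 and 9266. All 3 mutant values were below all 3 control values. It averaged -1.61 ± 0.66 in the mutants and -0.21 ± 0.35 in the controls (SD, n = 3 each), a mutant minus control value of -1.39 (exact permutation p = 0.1, two-sided). For the dimmer probe set the mutant minus control value of the same quantity was -1.79 (exact permutation p = 0.1, two-sided). With 3 arrays on each side no exact p can go below 0.1, so neither of these 2 comparisons could pass 0.05, and adjustment over both leaves them at 0.1.

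**Figure D1:**
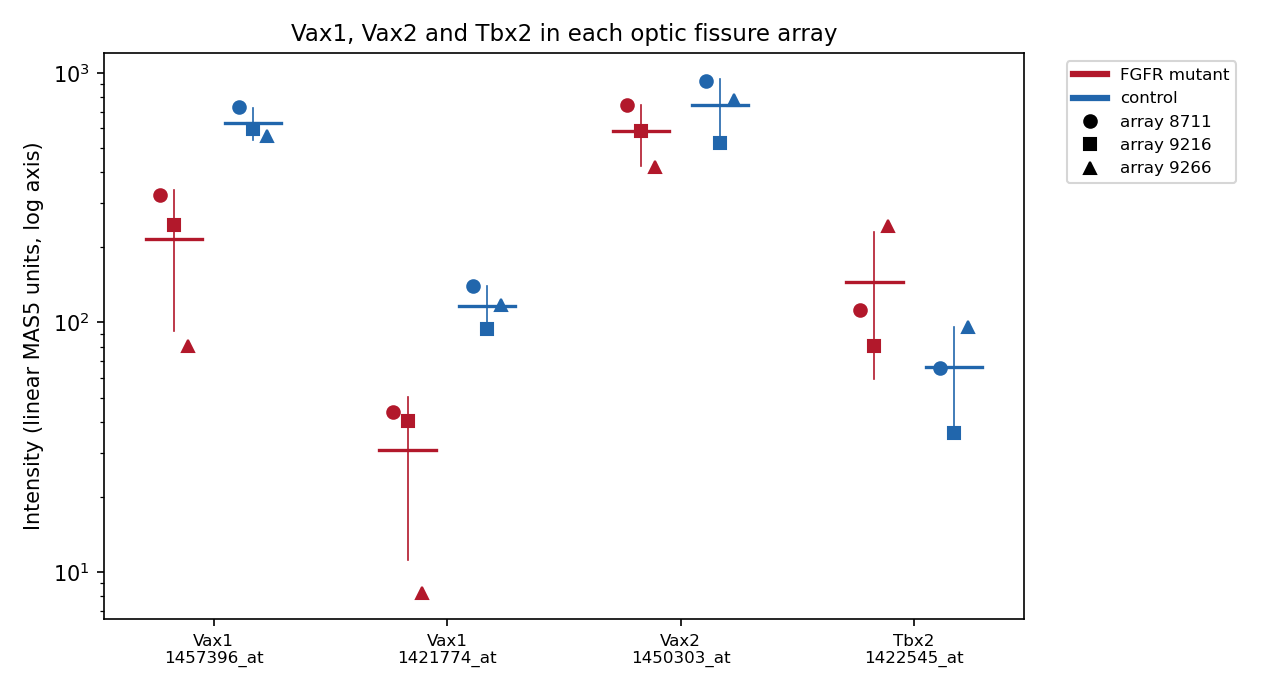
Intensity in linear units on a log axis for the 2 Vax1 probe sets, Vax2 and Tbx2, with 3 FGFR mutant arrays (red, left) and 3 control arrays (blue, right) for each; marker shape gives the array number, horizontal lines are means and vertical lines ± 1 SD. The mutant Vax1 values lie below all control values on both probe sets (80.1 to 322.9 against 559 to 732.9 on the brighter one), while Vax2 and Tbx2 overlap.

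Tbx2, a T-box repressor of the dorsal optic cup, had the opposite sign, with groups that overlapped. Its probe set 1422545_at had 112.4, 80.7 and 242.6 in mutant arrays 8711, 9216 and 9266, against 65.9, 36.2 and 96 in control arrays 8711, 9216 and 9266. Mutants 8711 and 9266 were above all control arrays, but mutant 9216 lay below control 9266. The means were 145 ± 85.8 in the mutants and 66 ± 29.9 in the controls (SD, n = 3 each), a log2 difference of 1.07 (SE 0.50), with a limma p of 0.0652 before and 0.888 after adjustment. Without the mutant 9266 array the difference was 0.62, and without control 9216 it was 0.70. Mutant 9266 thus had the lowest Vax1 and Vax2 and the highest Tbx2 of the 6 arrays.

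Tbx3 and Tbx5 were dim on every probe set. A filter at the 40th percentile of mean log2 intensity (an intensity of 15.1) would keep 5 of the 11 probe sets: both for Vax1, that of Vax2, that of Tbx2 and 1 for Tbx3. That Tbx3 probe set, 1448029_at, had 17.3, 16.5 and 23.4 in mutant arrays 8711, 9216 and 9266, against 20.3, 13.8 and 37.2 in control arrays 8711, 9216 and 9266. The groups overlapped, and control 9266 was the highest array. The log2 difference was -0.20 (SE 0.46), with a limma adjusted p of 0.95, and without control 9266 it was 0.15, in the other direction.

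The other 4 Tbx3 probe sets did not give 1 direction. Tbx3 is a T-box repressor close to Tbx2 in sequence, and 1 of these probe sets, 1437479_x_at, carries the suffix that Affymetrix uses for probes that can bind unrelated transcripts. Their log2 differences were -0.74 for 1439567_at, 0.12 for 1445757_at, -1.05 for 1437479_x_at and 1.12 for 1444594_at, with SE from 0.48 to 0.79. The last did not overlap between the groups, at 8.5, 1.9 and 2.8 in mutant arrays 8711, 9216 and 9266 against 0.5, 1 and 1 in control arrays 8711, 9216 and 9266, and had a limma p of 0.0471 before and 0.888 after adjustment. All 6 of these values were under the filter level. In that direction, 7.11% of all probe sets did not overlap and 3.12% had an unadjusted p under 0.05.

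Tbx5, the T-box factor most restricted to the dorsal retina, had 10.1, 14.1 and 11.1 on probe set 1425695_at in mutant arrays 8711, 9216 and 9266, against 3.4, 2.9 and 12.1 in control arrays 8711, 9216 and 9266. Control 9266 lay among the mutant values. The log2 difference was 0.96 (SE 0.58), with a limma adjusted p of 0.888. The other probe set, 1425694_at, had 1.3, 1.3 and 1.1 in mutant arrays 8711, 9216 and 9266, against 0.9 and 1 in control arrays 8711 and 9266, with control 9216 alone far above the rest. The means were 1.23 ± 0.115 in the mutants and 4.47 ± 6.09 in the controls (SD, n = 3 each). Its log2 difference of -0.63 (SE 0.64) rested on control 9216 and was 0.15 without it. No difference in Tbx5 was detectable at these intensities.

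**Figure D2:**
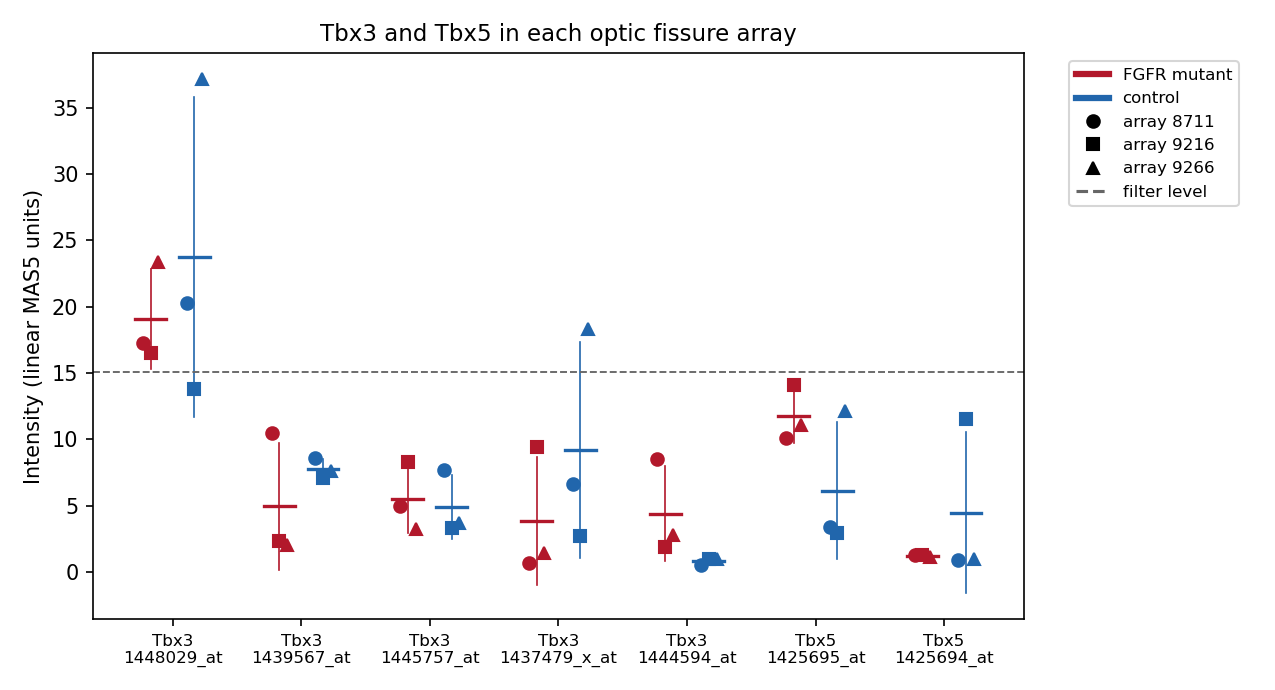
Intensity in linear units for the 5 Tbx3 and 2 Tbx5 probe sets, with 3 FGFR mutant arrays (red, left) and 3 control arrays (blue, right) for each; marker shape gives the array number, horizontal lines are means, vertical lines ± 1 SD, and the dashed line is the filter level of 15.1. Only Tbx3 1448029_at has group means above that line, at 19.1 in the mutants and 23.8 in the controls.

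Over all 11 member probe sets, 7 were lower and 4 higher in the mutants, beside 49.7% lower and 50.3% higher over all 45037 probe sets. The median log2 difference of the members was -0.35, beside a median of 0.00 over all probe sets. Of the 11, 2 lower and 1 higher had an unadjusted p under 0.05, and 0 passed adjustment. Over all probe sets 2.37% were lower and 3.12% higher at that unadjusted p. The 2 lower ones were both Vax1 probe sets, and the 1 higher was Tbx3 1444594_at, under the filter level. Tbx3 alone gave 5 of the 11, so the counts and median do not rest on 11 separate genes. In the reference gene table Tbx3 and Tbx5 are neighbours, as are Tbx2 and Tbx4. Tbx4, which is known for the hindlimb, had intensities of 3.3, 1.1 and 1.1 in the mutant arrays and 11.3, 10.6 and 13.3 in the control arrays, in the order 8711, 9216 and 9266, all under the filter level.

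**Figure D3:**
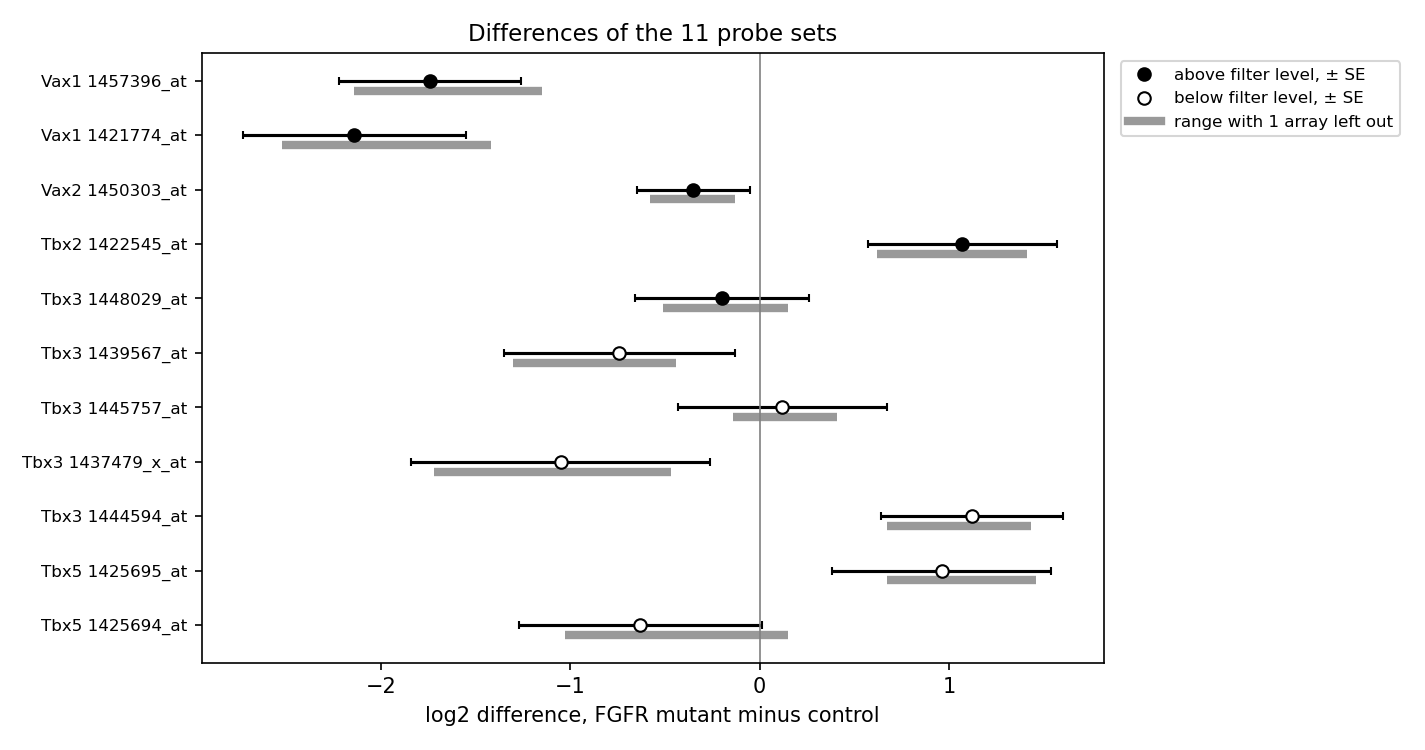
Log2 difference, FGFR mutant minus control, for each of the 11 probe sets (horizontal axis), with bars of ± 1 SE; filled points lie above the filter level, open points below it, and grey bars span the values with 1 array left out. Vax1 stays below 0 throughout (-2.14 to -1.15 on the brighter probe set) and Tbx2 above 0 (0.62 to 1.41), while Tbx3 1448029_at and 1445757_at and Tbx5 1425694_at span 0.

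Other genes of the ventral optic cup and optic stalk mostly had lower values in the mutants. Of 12 measured, 10 were lower and 2 higher, with a median log2 difference of -0.59, beside 0.06 over the brightest probe sets of all 18193 genes. Over all genes, 44.3% were lower and 55.7% higher, the shares to set beside this and the later list counts. An unadjusted p under 0.05 was found for 5 lower and 1 higher gene, against 2.23% of all genes lower and 4.09% higher, and 0 passed adjustment. This list and the other gene lists were chosen with earlier results of these data known, so such counts describe them and do not test them. Among the 10, Nr2f1 and Ephb3 were at -0.14 and -0.12, close to 0. Nr2f2 was at -0.01 with a wide spread (SE 1.02). It had 43.2, 625 and 642.6 in mutant arrays 8711, 9216 and 9266, against 232.6, 367.5 and 212.2 in control arrays 8711, 9216 and 9266. Only its mutant 8711 value lay below the controls, and the other mutant values lay above them. Without the mutant 8711 array 8 of the 12 were lower, with a median of -0.89.

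Bmpr1b, a BMP receptor of the ventral retina, had 1009.5, 723.4 and 414.3 in mutant arrays 8711, 9216 and 9266, against 1499.3, 1467 and 1314.3 in control arrays 8711, 9216 and 9266, a log2 difference of -1.08 (SE 0.31). Cyp1b1, a cytochrome P450 enzyme of the eye linked to childhood glaucoma in humans, had 677.6, 732.6 and 129.5 in mutant arrays 8711, 9216 and 9266, against 1976.4, 2246.3 and 1834 in control arrays 8711, 9216 and 9266, a difference of -2.32 (SE 0.64). Neither overlapped between the groups, and both were lowest in mutant 9266, the array lowest for Vax1. The limma adjusted p was 0.715 for Bmpr1b and 0.716 for Cyp1b1. Aldh1a3, the retinoic acid enzyme of the ventral retina, had 4927.4, 3429.5 and 2329.9 in mutant arrays 8711, 9216 and 9266, against 6234.3, 4994.7 and 5520.5 in control arrays 8711, 9216 and 9266. It did not overlap either, with a log2 difference of -0.71 (SE 0.26) and a limma adjusted p of 0.849. Smoc1, a secreted protein of basement membranes, Chrdl1, a BMP antagonist also called ventroptin, and Ntn1, the netrin of the fissure margins, were at -1.27, -0.98 and -1.28. Of these Ntn1 overlapped between the groups. Smoc1 (SE 0.44) was separated only narrowly. It had 293.6, 346.4 and 334.5 in mutant arrays 8711, 9216 and 9266, against 1248.1, 360 and 1063 in control arrays 8711, 9216 and 9266. The genes of this list that ran the other way were Zfp503, a zinc finger repressor needed for fissure closure, at 0.75, and Foxd1, a forkhead factor of the ventrotemporal retina, at 0.90 with overlapping groups.

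Genes of the dorsal optic cup and of BMP signalling had no common direction. Of 15, 10 were higher and 5 lower, with a median of 0.21. An unadjusted p under 0.05 was found for 2 higher and 1 lower gene, against 4.09% of all genes higher and 2.23% lower, and 0 passed adjustment. Bmp2, a BMP ligand, had 74.9, 56.7 and 106.3 in mutant arrays 8711, 9216 and 9266, against 33.8, 23.5 and 16.1 in control arrays 8711, 9216 and 9266, a log2 difference of 1.64 (SE 0.41) with a limma adjusted p of 0.608. Id1, a target of BMP signalling, was lower, at -1.21 (SE 0.42), with an adjusted p of 0.806. Bmp4, the dorsal ligand that favours the T-box genes and lies outside the rule for named genes, had 53.3, 77 and 133.4 in mutant arrays 8711, 9216 and 9266, against 84, 27.2 and 40.1 in control arrays 8711, 9216 and 9266. Its groups overlapped, and its log2 difference was 0.83 (SE 0.50).

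In the hedgehog pathway, whose signals favour the ventral genes, 6 of 11 genes were lower and 5 higher, with a median of -0.11, and with 0 lower and 1 higher at an unadjusted p under 0.05 (2.23% lower and 4.09% higher over all genes). That 1 was Gas1, a co-receptor of hedgehog ligands, at 1.17 (SE 0.27) with a limma adjusted p of 0.608. Gli3, a transcription factor of the pathway, was at 0.34 (SE 0.18) with an adjusted p of 0.888. Without the mutant 8711 array the median was 0.13, so the list had no settled direction. Median centring of the arrays shifts the median of all probe sets by 0.11, as much as the median of this list over all arrays. Of 9 FGF feedback genes, 8 were lower and 1 higher, with a median of -0.40, with 3 lower and 0 higher at an unadjusted p under 0.05, beside the same 2.23% lower and 4.09% higher over all genes. Spry2, an inhibitor induced by FGF, was at -0.96 (SE 0.32) with a limma adjusted p of 0.796, and Spred2, an inhibitor of RAS and ERK signalling, at -1.03 (SE 0.36) with an adjusted p of 0.824. Spred2 overlapped between the groups and Spry2 did not. The 1 higher gene, Spry4, was at 0.54 (SE 0.37) with a limma adjusted p of 0.888. Its groups did not overlap, at 28.9, 28.3 and 21.2 in mutant arrays 8711, 9216 and 9266. Control arrays 8711, 9216 and 9266 had 17.6, 17.7 and 16.7. Etv4, among the 8 lower, was under the filter level. Without the mutant 8711 array 7 of the 9 were lower, with a median of -0.49.

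Within the families of the members, 7 of 8 other Pax genes were higher and 1 lower, but only Pax6 was above the filter level. Over all genes 55.7% were higher and 44.3% lower. Pax6, which in the optic cup opposes Pax2, had 2367.2, 1954.9 and 2360.8 in mutant arrays 8711, 9216 and 9266, against 1442.5, 1776.1 and 1475.8 in control arrays 8711, 9216 and 9266, a log2 difference of 0.51 (SE 0.18) with a limma adjusted p of 0.806. Pax7, a factor of muscle and neural crest, was under the filter level at -2.56 (SE 0.57). Of 12 other T-box genes 6 were lower and 6 higher, with 3 above the filter level. The 2 with the smallest p were Tbx4, given above, at -1.98 (SE 0.51), and Mga, a large T-box factor that partners Max, at 0.35 (SE 0.22).

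**Figure D4:**
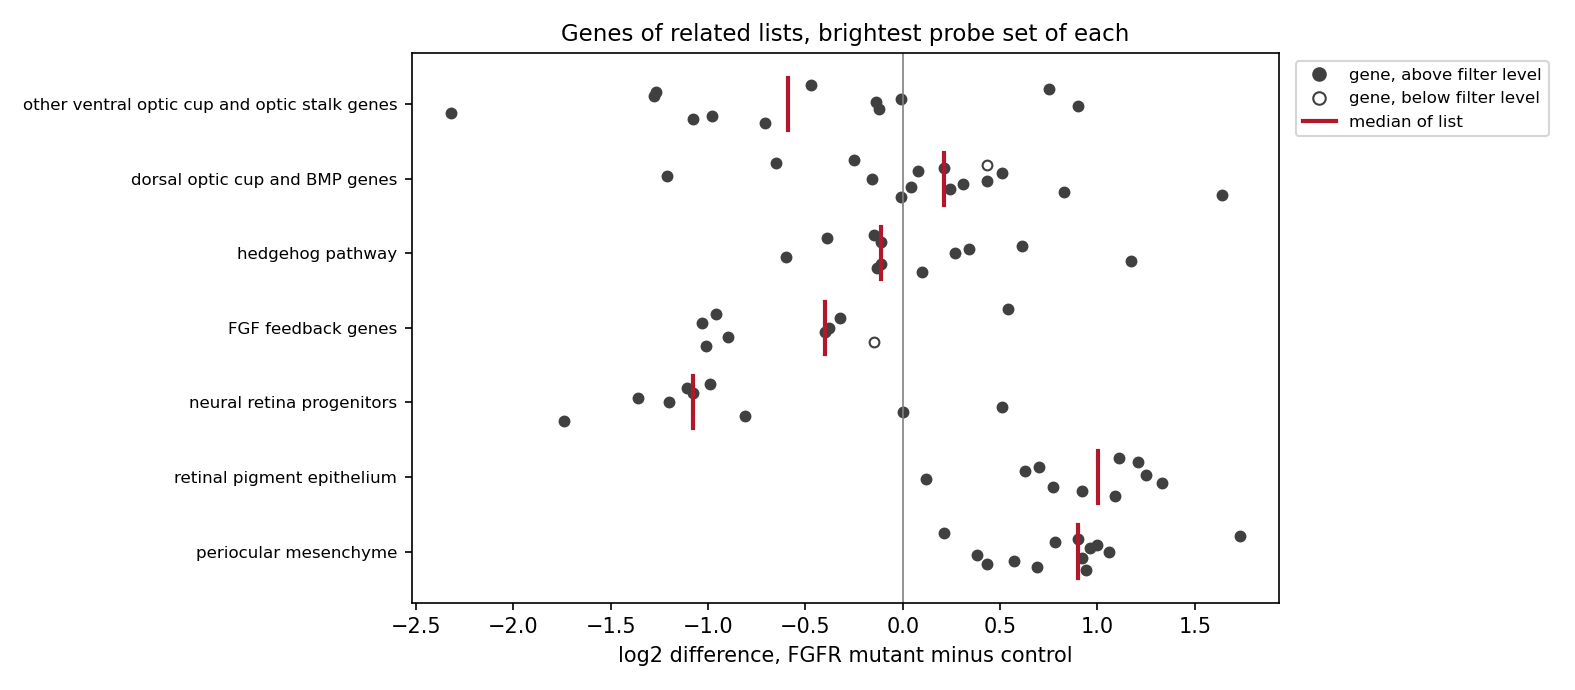
Log2 difference, FGFR mutant minus control, of the brightest probe set of each gene (horizontal axis) in 7 lists, with filled points above and open points below the filter level and red lines at the list medians. The ventral optic cup, FGF feedback and neural retina lists have medians of -0.59, -0.40 and -1.08, and the pigment epithelium and mesenchyme lists of 1.0 and 0.90.

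Markers of the tissues that adjoin the fissure differed beside Vax1 and Tbx2. Their counts stand beside 44.3% lower and 55.7% higher over all genes. All 9 neural retina markers measured were above the filter level. Their summed intensity was 5431.2 to 6534.6 in the mutants and 8311.4 to 8946.2 in the controls, and 8 of 9 were lower, of which Lhx2 was at 0.00. The 2 with the smallest p were Fgf15 (-1.74, SE 0.29) and Six6 (-1.11, SE 0.24). Without the mutant 8711 array 7 of the 9 were lower, and the median of the list went from -1.08 to -0.82. All 10 pigment epithelium markers were higher, with the smallest p for Rab38 (1.25, SE 0.19) and Mitf (0.92, SE 0.16). They summed to 23363.3 to 38012.9 in the mutants and 14611 to 16870.6 in the controls. The highest of these sums was that of mutant 9266, the array with the lowest Vax1 and highest Tbx2. The neural retina list did not follow that order: its lowest sum was that of mutant 9216, and mutant 9266, at 6247.1, had the smallest drop in mean log2 value from the control mean (-0.68, against -1.0 in mutant 8711 and -0.92 in mutant 9216).

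All 13 periocular mesenchyme markers were higher, with the smallest p for Twist1 (1.73, SE 0.44) and Prrx1 (1.0, SE 0.29). Of the 13, 4 did not overlap between the groups, beside 1671 of all 18193 genes without overlap and higher. Their mean log2 values from the control mean were 0.53, 0.84 and 1.06 in mutant arrays 8711, 9216 and 9266. Control arrays 8711, 9216 and 9266 were at 0.27, -0.72 and 0.45, so mutant 8711 lay only just above control 9266. The markers summed to 2828.4 to 3492.1 in the mutants and 1144.9 to 2382.9 in the controls. The lowest mesenchyme sum was that of control 9216, the array with the lowest Tbx2. The highest was that of mutant 9266, the array with the highest Tbx2. Within the mutants the order was not the same, as 8711 had the lowest sum and 9216 the lowest Tbx2. No marker of these 3 lists was at 0 in any array. In limma, an unadjusted p under 0.05 was found for 6 lower and 1 higher neural retina markers. It was found for 7 pigment epithelium and 3 mesenchyme markers, all higher, against 2.23% of all genes lower and 4.09% higher. After adjustment 0 of these markers passed. Their part in the values of Vax1 and Tbx2 was not tested.

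The other markers were less uniform, beside the same 44.3% lower and 55.7% higher over all genes. Lens markers had 5 of 8 lower, with a median of -0.22 and Mip and Foxe3, both under the filter level, at the smallest p (1.23 and 1.17). Surface ectoderm had 5 of 7 lower and a median of -0.23, with Krt18 at 1.47 and Krt8 at 0.87, but without mutant 8711 3 were lower and 4 higher, with a median of 0.02. Endothelium had 4 of 7 lower and a median of -0.11 (-0.06 without mutant 8711), with Kdr at -0.95 and Cldn5 at -0.32. Macrophages had 4 of 7 higher and a median of 0.23, with C1qb at 0.85 and Csf1r at 0.49, and a median of 0.51 without mutant 8711. All 6 erythroid markers measured were higher, with a median of 0.38, Hbb-bh1 at 0.48 and Hba-a1, under the filter level, at 1.28, and a median of 0.16 without mutant 8711.

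The genes with intensities most like those of Vax1 across the 6 arrays were Gnai1, a G protein subunit, with a Pearson correlation of 0.996 on the log2 scale, and Crx, a homeobox factor of photoreceptor precursors, with 0.992. Crx had 76.2, 44.2 and 18.5 in mutant arrays 8711, 9216 and 9266, against 161.9, 120.6 and 118.2 in control arrays 8711, 9216 and 9266. For Tbx2 they were Ugp2, an enzyme of UDP-glucose synthesis (0.996), and Col6a3, a collagen of mesenchyme (0.991). For Vax2 they were Slc38a9, a lysosomal amino acid sensor (0.989), and Spryd4 (0.987), and for Tbx3 Car12, a carbonic anhydrase (0.997), and Rimklb (0.986). Among the 22185 probe sets searched, 71 exceeded 0.95 for Vax1, 78 for Tbx2, 25 for Vax2 and 38 for Tbx3. These are descriptions over 6 arrays that share the 2 groups and their scaling.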

How the data were processed

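The deposited values are linear intensity values, 1 for each probe set and array. Per the submitters' processing notes they were made with MAS5, whose version and settings are not given in the sources used here. With 2% trimmed at each end, the mean was 150 in every array, so the deposited intensities were used without further scaling. Per the labels, RNA was biotin-labelled. Detection calls were not used here.

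Of 45101 probe sets, 64 manufacturer controls were left out. Of the other 45037, 34945 had 1 gene symbol, 932 several and 9160 none in the platform annotation. Each intensity had 1.7, the 10th percentile of all values, added before taking log2, so the differences of dim probe sets are understated. All 45037 were fitted together, without a filter, in R 4.3.3 with limma 3.58.1 (lmFit and eBayes, robust and with trend), statmod 1.5.0 and Benjamini-Hochberg adjustment, two-sided. Figures used Python 3.11.15 and matplotlib 3.10.9. The fit was also run on simulated data with the same noise in every array, so that run did not cover the unequal quality of these arrays.

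The members and gene lists were chosen with earlier results of these data known. Named genes were all member probe sets, the 2 genes with the smallest p in each list, and the 2 most correlated genes for each member above the filter. Bmp4, Spry4, Etv4 and, from the ventral list, all genes beyond the first 2 were named after their values were seen. Deviations from the group means correlated at 0.0239, 0.256 and -0.0499 for the mutant and control arrays numbered 8711, 9216 and 9266. For arrays of unlike number the correlations ran from -0.209 to 0.187. With so few arrays these values cannot tell whether the title numbers pair the arrays.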

Additional observations from a re-analysis of the deposited data

How the results depend on the processing

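Under no alternative did a member probe set pass an adjusted p of 0.05. The alternatives were added values of 1 and 16, quantile normalization, median centring, the filter, a replicate block, array weights, another variance model, leaving out each array or both 8711 arrays, and, chosen after seeing the data, array weights with the filter. Over them the adjusted p of Vax1 ran from 0.0515 to 0.997 on 1457396_at, the lowest with array weights and the filter, and from 0.0669 to 0.997 on 1421774_at. With 1 array left out, Vax1 ran from -2.14 to -1.15 and from -2.52 to -1.42, Vax2 from -0.58 to -0.13 and Tbx2 from 0.62 to 1.41. Vax1, Vax2 and Tbx2 kept their sign under every alternative run. The sign turned for Tbx3 1448029_at (0.15 without control 9266; range -0.51 to 0.15), Tbx3 1445757_at (-0.05 without control 9216 and -0.14 without mutant 9216; range -0.14 to 0.41) and Tbx5 1425694_at (0.15 without control 9216; range -1.03 to 0.15), and the cause was not tested. With the replicate block, Vax1 had the same -1.74 with an adjusted p of 0.812, and the block changed no call. Median centring shifted all probe sets by 0.11, and Vax1 1457396_at was then at -1.63. Of the member probe sets 4 were lower with the filter, and 4 with array weights and the filter, which leave 5 to test. The count over all probe sets was 0, with 1 (Xist) without mutant 8711, 1 (Xist) without both 8711 arrays, and 184 with array weights and the filter (100 higher, 84 lower), so leaving out 1 array gave 0 to 1. Xist was lower in the mutants in both settings. No fit took the sex of the embryos into account, and the cause of the Xist difference was not tested. Intensities under 15.1 limit Tbx3 and Tbx5. Without mutant 8711, 2 other Pax genes and 3 surface ectoderm markers were lower.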
